A study of Mus musculus with 6 samples.

Results

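The let-7 family genes with Mir98 were followed in small RNA sequencing of regulatory T (Treg) cells from the mouse thymus. Thymus is the tissue given by the labels and the methods, whereas the running text of the study calls the sequenced cells peripheral. The members were taken by name from the feature names of the deposited miRNA table: Mirlet7a-1, Mirlet7b, Mirlet7c-1, Mirlet7d, Mirlet7e, Mirlet7f-1, Mirlet7f-2, Mirlet7g, Mirlet7i and Mir98, which are 10 of its 1241 features. Treg cells, the Foxp3-expressing T cells that restrain immune responses, were sorted from thymi of mice aged 7 weeks on the background labelled C5BL6/N. There were 3 libraries of wild type (WT) mice and 3 of mice labelled miR-181a1/b1 -/-, here called miR-181a/b-1-/- or, for short, KO, and both groups otherwise shared strain, age, tissue and sort. The methods call the libraries of a genotype biological replicates and describe the sorted cells as coming from pooled thymi, so no library stands for a single animal. The study describes the mutation as a deletion of miR-181a/b-1, and its methods name no Cre or transgene for these libraries.

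MicroRNAs of the let-7 family are cut from hairpin precursors by Drosha and Dicer and are loaded into Argonaute proteins, where bases 2 to 8 of the strand, the seed, pair with target mRNAs. The family is known for holding back growth and pluripotency genes such as Hmga2 and Myc. LIN28 proteins bind let-7 precursors and block their maturation, in part by recruiting terminal uridylyl transferases. In T cells, let-7 miRNAs are known to be high in naive cells and to drop upon activation, and in the thymus they are known to repress Zbtb16, the PLZF factor of innate-like T cells.

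The mature sequences are shown first, since they decide which member a read can be assigned to. All 10 members were found in the miRNA sequence table of RefSeq (build GRCm38.p6), and the 5p strands of all 10 carry 1 seed, printed in capitals. They form 9 distinct strands, because Mirlet7f-1 and Mirlet7f-2 encode the same one.
let-7a-5p: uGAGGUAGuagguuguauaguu
let-7b-5p: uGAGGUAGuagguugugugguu
let-7c-5p: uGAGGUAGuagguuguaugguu
let-7d-5p: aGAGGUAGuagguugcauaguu
let-7e-5p: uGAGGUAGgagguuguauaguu
let-7f-5p: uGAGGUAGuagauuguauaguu
let-7g-5p: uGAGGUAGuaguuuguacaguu
let-7i-5p: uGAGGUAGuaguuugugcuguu
miR-98-5p: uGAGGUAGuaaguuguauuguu
Any pair of these 9 strands differed at 1 to 6 of their 22 bases. let-7a-5p differed from let-7c-5p, from let-7e-5p and from let-7f-5p by 1 base, let-7b-5p from let-7c-5p by 1, and let-7g-5p from let-7i-5p by 2. The greatest difference, 6 bases, was between let-7d-5p and let-7i-5p. The seed was found in 11 differently named mature strands of the RefSeq table, which has 1738 mature entries. The table assigns these strands to 13 of its 1005 hairpins. Besides the members these were Mirlet7c-2, Mir7k, the gene of let-7k, and Mir1961. The Mirlet7a-2 hairpin also holds the whole let-7a-5p sequence, but the table lists no 5p entry for it, so it is not in this count.

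The 3p strands are less alike, and those of 3 members are printed, with bases 2 to 8 in capitals, because they show which parts of paired genes can be told apart.
let-7a-1-3p: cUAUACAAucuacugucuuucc
let-7f-1-3p: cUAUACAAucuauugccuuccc
let-7f-2-3p: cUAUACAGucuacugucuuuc
The strand let-7a-1-3p is also the 3p strand of Mirlet7c-2. The 3p strands of Mirlet7f-1 and Mirlet7f-2 occur in no other hairpin of the table, although their 5p strands are the same. In the deposited per-gene counts, reads of both strands and of the loop are summed, so the strand behind a count cannot be told apart.

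The members lie at 7 places in the mouse genome (GRCm38). Mirlet7a-1 (chr13:48538179-48538272), Mirlet7f-1 (chr13:48537829-48537917) and Mirlet7d (chr13:48536012-48536114) form 1 cluster on the minus strand, with 261 bases between the first pair and 1714 between Mirlet7f-1 and Mirlet7d. Mirlet7f-2 (chrX:151912346-151912428) and Mir98 (chrX:151913214-151913321) lie 785 bases apart on the plus strand, in an intron of Huwe1, a ubiquitin ligase gene. Mirlet7g (chr9:106178840-106178927) lies in an intron of Wdr82, which encodes a subunit of histone methyltransferase complexes. Mirlet7c-1 (chr16:77599657-77599750) lies in an intron of the lncRNA Mir99ahg, and Mirlet7e (chr17:17830352-17830444) in an intron of Spaca6. Mirlet7b (chr15:85707319-85707403) and Mirlet7i (chr10:122985640-122985724) lie within exons of the noncoding genes Lncppara and D630033A02Rik. The 3 genes of the chromosome 13 cluster all lie within 1 exon of the lncRNA 6720427I07Rik (chr13:48532905-48538351).

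HTSeq, the counter that the authors used, by default leaves out a read that aligns to several places or falls on several genes. The part of each hairpin that has a copy elsewhere was therefore measured. All stretches of 22 bases, about the length of a mature miRNA, were compared with the 1005 hairpins of the RefSeq table. Of 712 such windows in the 10 hairpins, 11 were found in another hairpin (1.54%). Mirlet7a-1 held 7 of them among its 73 windows (9.59%), shared with Mirlet7a-2 and Mirlet7c-2. Mirlet7c-1 held 2, shared with Mirlet7c-2, and Mirlet7f-1 and Mirlet7f-2 held 1 each, shared with one another. The other 6 members held none.

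The shared windows lay on the mature strands. They covered bases 13 to 35 and 61 to 86 of the Mirlet7a-1 hairpin and bases 16 to 38 of Mirlet7c-1, which take in both mature strands of the former and the 5p strand of the latter. In the Mirlet7f pair they covered bases 8 to 29, the 5p strand and nothing more, so that a full-length read with 1 further templated base can be assigned. A read that is exactly let-7a-5p, let-7c-5p or let-7f-5p has no unique place among these hairpins. Reads of both mature strands of Mirlet7g, Mirlet7b, Mirlet7d, Mirlet7e, Mirlet7i and Mir98 do have one. The longest stretch that Mirlet7g shared with any let-7 hairpin was 19 bases, with Mirlet7i. With shorter windows of 18 bases, the shared part rose to 52 of 752 windows (6.91%), and with 25 bases it was 2 of 682 (0.293%). Adding all transcripts of GENCODE vM21 as possible partners gave the same 11 windows at 22 bases. The rest of the genome was not searched, and how many reads were lost in this way was not tested.

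**Figure D1:**
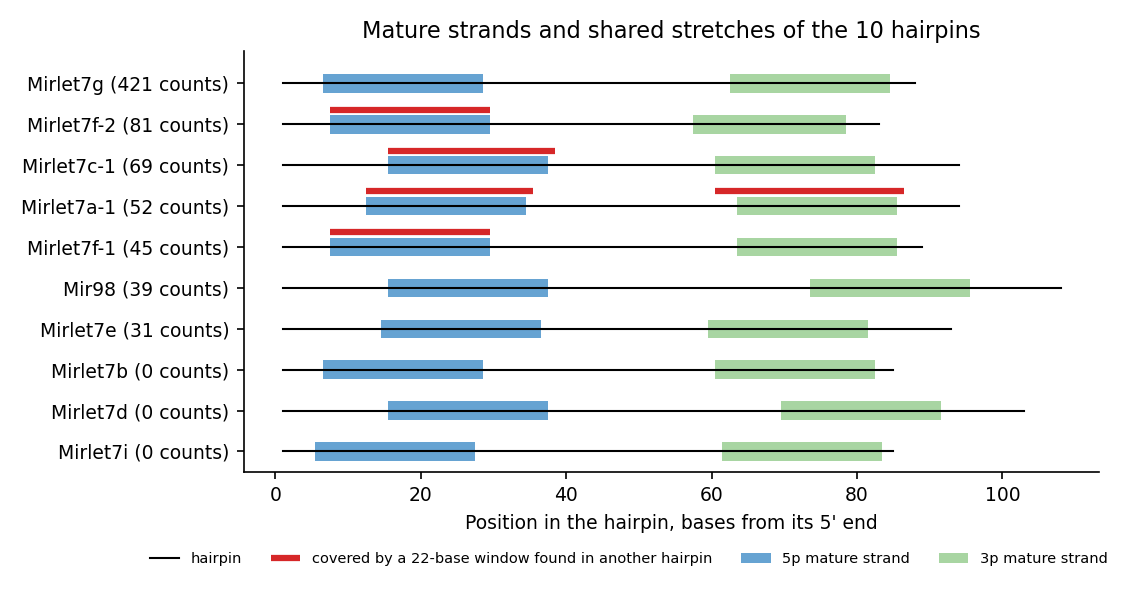
Each line is 1 hairpin drawn to scale in bases from its 5′ end, with its 5p strand in blue, its 3p strand in green and, in red, the bases covered by a 22-base window that occurs in another hairpin. Red marks lie over the 5p strands of Mirlet7f-2, Mirlet7c-1, Mirlet7a-1 and Mirlet7f-1 and the 3p strand of Mirlet7a-1. Mirlet7g, with 421 counts, has none, nor have the 3 members without counts.

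The 10 members together had 738 counts in the 6 libraries, 4.69% of the 15741 counts on miRNA features. A total of 421 of these counts fell on Mirlet7g. Mirlet7f-2 had 81, Mirlet7c-1 69, Mirlet7a-1 52, Mirlet7f-1 45, Mir98 39 and Mirlet7e 31. Mirlet7b, Mirlet7d and Mirlet7i had no count in any library. The libraries held 168293 to 307840 counts on genes, of which 1359 to 3422 were on miRNA features, and between 75.7% and 80.3% of the records of a library were given to no gene. Records with more than 1 alignment made up 41.7% to 46.2% of a library and those on more than 1 gene 20.4% to 24.0%. For the members without counts, the limit set by 0 counts, taken as 3 counts, was 0.0877% of the miRNA counts in the deepest library and 0.221% in the shallowest. Such limits, and the Wilson intervals given below, cover counting error only, since the sources name no molecular identifiers. The limits hold for reads assigned to a gene. They are no bound on the amount of Mirlet7b, Mirlet7d and Mirlet7i, which lie wholly inside same-strand exons of other genes.

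The libraries were checked for cell identity before genotypes were compared. All 4 Treg markers examined had counts, 157 to 179 per WT library and 132 to 209 per KO library, among them Foxp3 with 149 counts in all. Ctla4 had 1 count. Of 6 markers of double-positive thymocytes 4 had counts, 19 in total, with 1 to 4 per WT library and 4 to 5 per KO library and with Rag2 and Ptcra at 0. The part of these cells in the let-7 levels was not tested. None of 7 erythroid markers had a count, 1 of 4 B cell markers had 6 counts in all (0 to 1 in WT, 1 to 2 in KO), and 2 of 5 myeloid markers had 4 counts, all in KO replicate 2, the library with the lowest share of let-7 counts. The deleted genes could not serve as a check of the labels. Mir181a-1 had 1 count, in WT replicate 2, and Mir181b-1 had none.

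The counts were then set beside the position of the hairpins in exons of other genes. All 5 members that no same-strand exon of another gene overlaps (Mirlet7g, Mirlet7f-2, Mirlet7c-1, Mir98 and Mirlet7e) had counts. Of the 5 members that lie wholly inside such an exon, Mirlet7b, Mirlet7d and Mirlet7i had none, whereas Mirlet7a-1 and Mirlet7f-1 had 52 and 45. Among all features of the miRNA table with a miRNA biotype in GENCODE vM21, 4 of 185 that lie wholly inside a same-strand exon had any count (2.16%), and 2 of these 4 were Mirlet7a-1 and Mirlet7f-1, the others being Mir122 and Mir31. Of the features without such an overlap, 154 of 906 had a count (17.0%), and of those overlapped in part, 14 of 87 (16.1%). Reads on more than 1 gene are left out by default, but whether let-7b, let-7d and let-7i reads were lost in this way was not tested.

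The covering genes themselves had few counts. D630033A02Rik, the transcribed pseudogene around Mirlet7i, had 17 counts, 6720427I07Rik had 3 and Lncppara had 1. The count files carry version 2 of the 6720427I07Rik identifier and GENCODE vM21 carries version 3, so the exon borders used for counting Mirlet7a-1, Mirlet7f-1 and Mirlet7d may differ from those used here. Mirlet7e and Mirlet7f-1 are also wholly covered on the opposite strand, by the predicted miRNA genes Gm25927 and Gm24111, which had no counts. The strand setting of the counting is not given in the sources used here. Of 63 features covered only by an antisense exon, 7 had a count (11.1%).

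**Figure D2:**
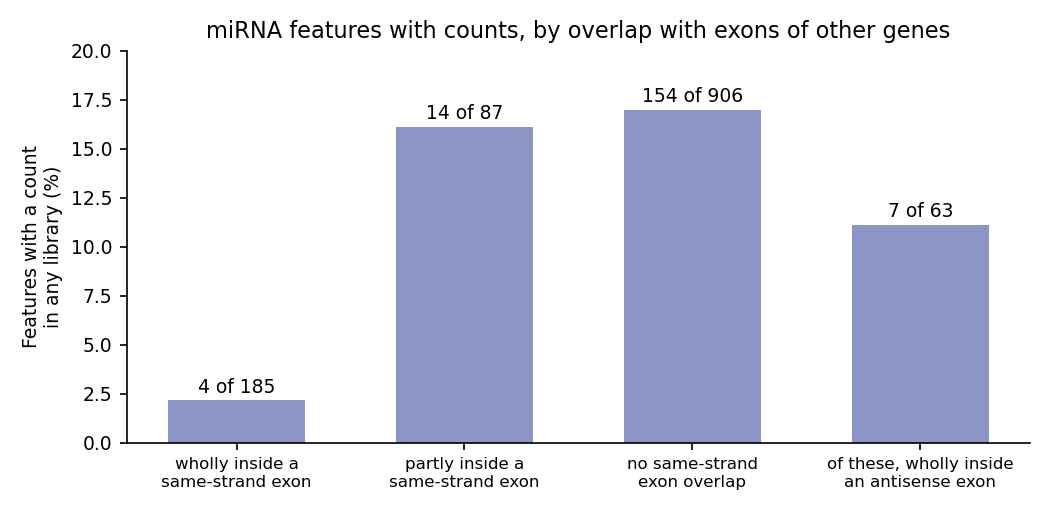
Bars give the percentage of miRNA features with at least 1 count in any of the 6 libraries, by how exons of other genes in GENCODE vM21 cover them, with the numbers of features above the bars. Features wholly inside a same-strand exon had counts in 4 of 185 cases, against 154 of 906 without such an overlap, and the last bar is a subset of the third.

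The let-7 family is known to share clusters with miR-99, miR-100 and miR-125 genes, and these partners were at or near 0. Of the 6 such partners listed, Mir99a (656 bases from Mirlet7c-1), Mir125a (367 bases from Mirlet7e), Mir125b-1, Mir125b-2 and Mir100, a neighbour of the non-member Mirlet7a-2, had no counts. Mir99b, 94 bases from Mirlet7e, had 1 count in KO replicate 2 and 2 in replicate 3. Mirlet7e itself had 9, 4 and 4 counts in WT and 4, 0 and 10 in KO.

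Of the other let-7 genes outside the 10 members, only Mirlet7a-2 on chromosome 9 had counts. It had 10, 7 and 15 in WT and 10, 2 and 15 in KO. These 59 counts were more than those of Mirlet7a-1, Mirlet7f-1, Mir98 or Mirlet7e. Mirlet7c-2, which lies 621 bases from Mirlet7b within Lncppara, had none, and Mir7j and Mir7k, the genes of let-7j and let-7k, had none either. With these genes, the family held 5.06% of the miRNA counts.

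Mirlet7g was the most counted member in every library. Its share of the family counts was 64.1%, 58.9% and 49.3% in WT and 59.2%, 60.5% and 52.4% in KO. The 95% Wilson intervals ran from 57.2% to 70.5% in WT replicate 1 and from 44.7% to 74.4% in KO replicate 2, the library with the fewest family counts. The mean share was 57.4% ± 7.51 in WT and 57.3% ± 4.38 in KO (SD over 3 libraries each), so the means differed by less than the spread within either genotype. Over all libraries Mirlet7g had 57.0% of the family counts, and 58.0% when counts were divided by hairpin length.

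The clusters held smaller shares. The chromosome 13 cluster of Mirlet7a-1, Mirlet7f-1 and Mirlet7d held 13.1% of the family counts, all of them from the first pair, with 14.6% ± 4.84 in WT and 12.6% ± 1.81 in KO (SD over 3 libraries each). The X chromosome pair of Mirlet7f-2 and Mir98 held 16.3%, with 16% ± 2.25 in WT and 15.5% ± 4.08 in KO (SD over 3 libraries each). The genotypes overlapped for both clusters.

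Within the chromosome 13 cluster, the ratio of the 2 counted genes varied between libraries. Mirlet7f-1 had 9, 10 and 12 counts in the WT libraries against 9, 10 and 14 for Mirlet7a-1, and 2, 1 and 11 in the KO libraries against 8, 4 and 7. The ratio of Mirlet7f-1 to Mirlet7a-1 was 1, 1 and 0.857 in WT and 0.25, 0.25 and 1.57 in KO, with KO replicate 3 above all WT libraries and the others below them. On the X chromosome, the ratio of Mirlet7f-2 to Mir98 was 1.9, 3.5 and 1.17 in WT and 3.0, 5.0 and 2.3 in KO, and the groups overlapped. These ratios rest on as few as 1 count and were not tested.

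**Figure D3:**
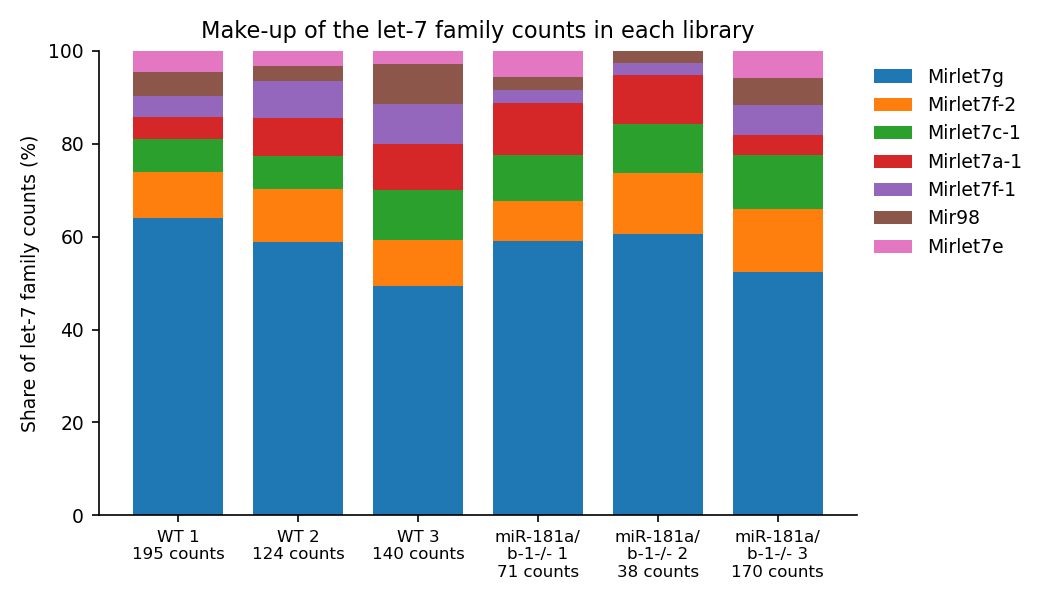
Stacked bars give the share of each gene in the let-7 family counts (in percent) of each of the 6 libraries, with the number of family counts under each bar. Mirlet7g, at the bottom, takes between 49.3% and 64.1%, and Mirlet7e is absent from miR-181a/b-1-/- replicate 2, which has 38 family counts.

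Levels of different genes were compared per 100 bases of hairpin and per 1000 miRNA counts, over all 6 libraries. The mature strands of the members have 21 or 22 bases whatever the length of the hairpin. Whether counts scale with hairpin length was not tested. On this scale the mean level was 28.9 ± 7.49 (SD, n = 6) for Mirlet7g and 5.84 ± 1.53 (SD, n = 6) for Mirlet7f-2, the next in order. Mirlet7g was the higher in 6 of 6 libraries, with p = 0.0312, the smallest that an exact two-sided sign-flip permutation test allows with 6 libraries (adjusted p = 0.0938 over the 6 neighbouring pairs). Mirlet7c-1 followed at 4.48 ± 1.33, Mirlet7a-1 at 3.63 ± 1.23, Mirlet7f-1 at 2.89 ± 1.58, Mir98 at 2.08 ± 1.32 and Mirlet7e at 1.90 ± 1.15 (SD, n = 6 each). No pair of neighbours in this order passed an adjusted p of 0.05, and the design could not go below 0.0312 before adjustment. The order was set by the means of the same 6 libraries in which the pairs were then compared, so these p-values describe the ranking and are no independent test of it. Reads that are exactly the 5p strand of Mirlet7f-1, Mirlet7f-2, Mirlet7a-1 or Mirlet7c-1 cannot be assigned to 1 hairpin, unlike those of Mirlet7g, and the part of this in the order was not tested.

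Among the other neighbouring pairs, Mirlet7f-2 exceeded Mirlet7c-1 in 5 of 6 libraries (exact permutation p = 0.0625, adjusted p = 0.125). Mirlet7c-1 exceeded Mirlet7a-1, and Mirlet7a-1 exceeded Mirlet7f-1, in 3 of 6 libraries each (exact permutation p = 0.375 for both, adjusted p = 0.45). Mirlet7f-1 exceeded Mir98 in 6 of 6 libraries (exact permutation p = 0.0312, adjusted p = 0.0938). In raw counts, before division by the longer hairpin of Mir98, they were equal in 3 libraries, Mir98 had 1 count more in WT replicate 1, and Mirlet7f-1 had 10 against 4 in WT replicate 2 and 11 against 10 in KO replicate 3. Mir98 exceeded Mirlet7e in 2 of 6 libraries (exact permutation p = 0.781, adjusted p = 0.781).

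For the comparison of genotypes, counts were scaled with TMM factors over the 23 miRNA features with at least 10 counts in at least 3 libraries and are given per 1000 miRNA counts. Of the 10 members, 5 passed this filter. Mirlet7a-1 and Mirlet7e fell below it, and Mirlet7b, Mirlet7d and Mirlet7i had no counts. In cells sorted in bulk, fewer cells with a miRNA and less of it per cell cannot be told apart.

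Mirlet7g had levels of 39.8, 28.3 and 26.9 in WT and 26.4, 15.5 and 29.6 in KO. The groups overlapped, with KO replicate 3 above WT replicates 2 and 3. The log2 fold change of KO over WT was -0.39 with a standard error of 0.35 (edgeR quasi-likelihood test, adjusted p = 0.763 over 23 features). The study itself, which used DESeq2, lists let-7g among the miRNAs moderately lower in KO Treg cells by small RNA sequencing. It also measured these miRNAs by qRT-PCR.

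Mirlet7f-1, the chromosome 13 member that shares its 5p strand with Mirlet7f-2, had levels of 2.86, 3.87 and 4.67 in WT and 1.26, 0.674 and 3.66 in KO. Its log2 fold change was -0.77 with a standard error of 0.64 (edgeR adjusted p = 0.763). Mirlet7f-2 on the X chromosome had levels of 6.04, 5.42 and 5.45 in WT and 3.77, 3.37 and 7.65 in KO. In both genes KO replicates 1 and 2 lay below all WT libraries and replicate 3 did not. The log2 fold change of Mirlet7f-2 was -0.09 with a standard error of 0.52 (edgeR adjusted p = 0.933).

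Mir98, the neighbour of Mirlet7f-2, had levels of 3.18, 1.55 and 4.67 in WT and 1.26, 0.674 and 3.33 in KO, with a log2 fold change of -0.60 and a standard error of 0.67 (edgeR adjusted p = 0.763). Mirlet7c-1 had levels of 4.45, 3.48 and 5.84 in WT and 4.40, 2.70 and 6.65 in KO. The KO libraries spanned the whole WT range for Mirlet7c-1, and its log2 fold change was 0.09 with a standard error of 0.54 (edgeR adjusted p = 0.933). For Mir98 the lowest WT library, replicate 2, lay between KO replicates 1 and 3.

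The members below the filter were not tested on this scale. Mirlet7a-1 had levels of 2.86, 3.87 and 5.45 in WT and 5.03, 2.70 and 2.33 in KO, and here KO replicate 1 was the highest of its group rather than replicate 3. Mirlet7e had levels of 2.86, 1.55 and 1.56 in WT and 2.51, 0 and 3.33 in KO. The groups overlapped for both genes.

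None of the 5 tested members passed an adjusted p of 0.05 with edgeR, none had an unadjusted p under 0.05, and DESeq2 on the same features also called 0 on either measure. Over all 23 features edgeR called 1, Mir6236 (4.35%). The groups did not overlap for 2 of the 23 features (8.70%), neither of them a member. Of the 5 tested members 4 had a negative log2 fold change and Mirlet7c-1 a positive one. Mirlet7a-2, which is no member but also holds the let-7a-5p sequence, was at 0.16 with a standard error of 0.57 (edgeR adjusted p = 0.933), and at -0.17 when scaled over all genes. The median of the 5 members was -0.39, beside 0.07 over the 23 features, of which 9 were negative. With standard errors of 0.35 to 0.67 on the log2 scale, these libraries leave room for differences of that size in either direction.

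**Figure D4:**
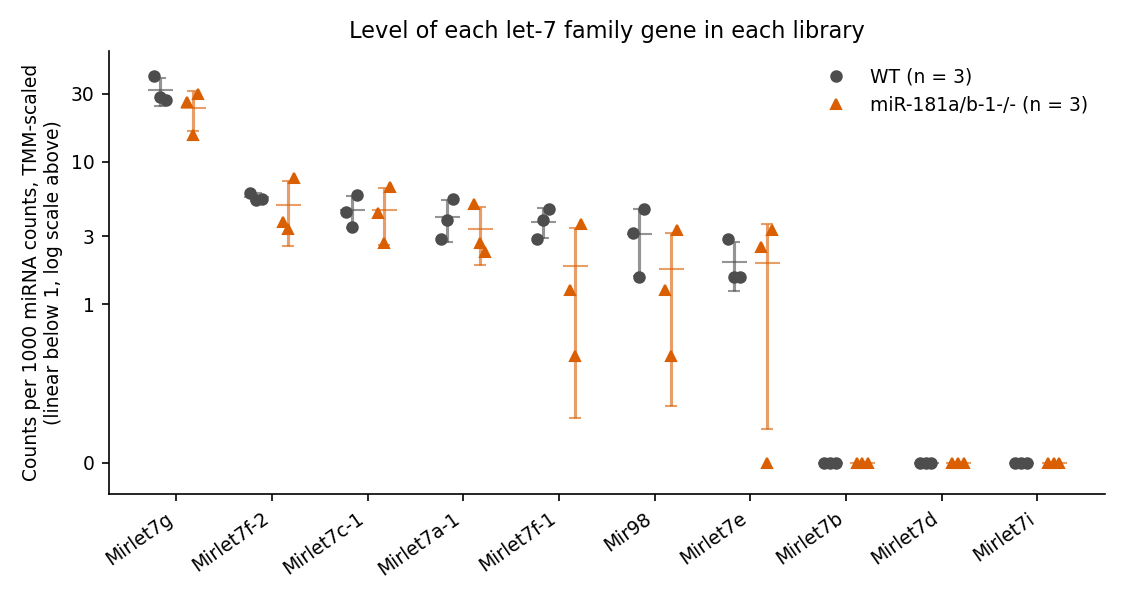
Points give the level of each member in each library, as TMM-scaled counts per 1000 miRNA counts not divided by hairpin length (linear axis below 1, log axis above), for WT (circles) and miR-181a/b-1-/- (triangles), with the mean and SD of 3 libraries as bars. Mirlet7g lies between 15.5 and 39.8, the other counted members lie below 8, and the genotypes overlap for every counted member.

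The direction for Mirlet7c-1, and the size of the difference for all 5 tested members, depended on the scaling. When all 1391 genes that passed the filter were used for the TMM factors and the adjustment, the 5 tested members were all negative, with a median log2 fold change of -0.78. Of the 23 miRNA features, 19 were negative on this scale too, and their median moved to -0.27, a shift of -0.34 from the scaling over miRNA features, whereas the median over all 1391 genes was -0.00. On this scale Mirlet7g had a log2 fold change of -0.78 with a standard error of 0.33 (edgeR adjusted p = 0.896). Mirlet7f-1 was at -1.08, Mir98 at -0.92, Mirlet7f-2 at -0.42 and Mirlet7c-1 at -0.24, so that Mirlet7c-1 lay within 0.03 of the median of the miRNA features while Mirlet7g lay below it. No gene of the 1391 was called by edgeR (0%), with 72 at an unadjusted p under 0.05, of which Mirlet7g was the only tested member. Features of the miRNA table made up 1.52%, 1.37% and 1.11% of the gene counts in WT and 1.08%, 0.697% and 1.11% in KO libraries, and the part of this in the result was not tested.

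**Figure D5:**
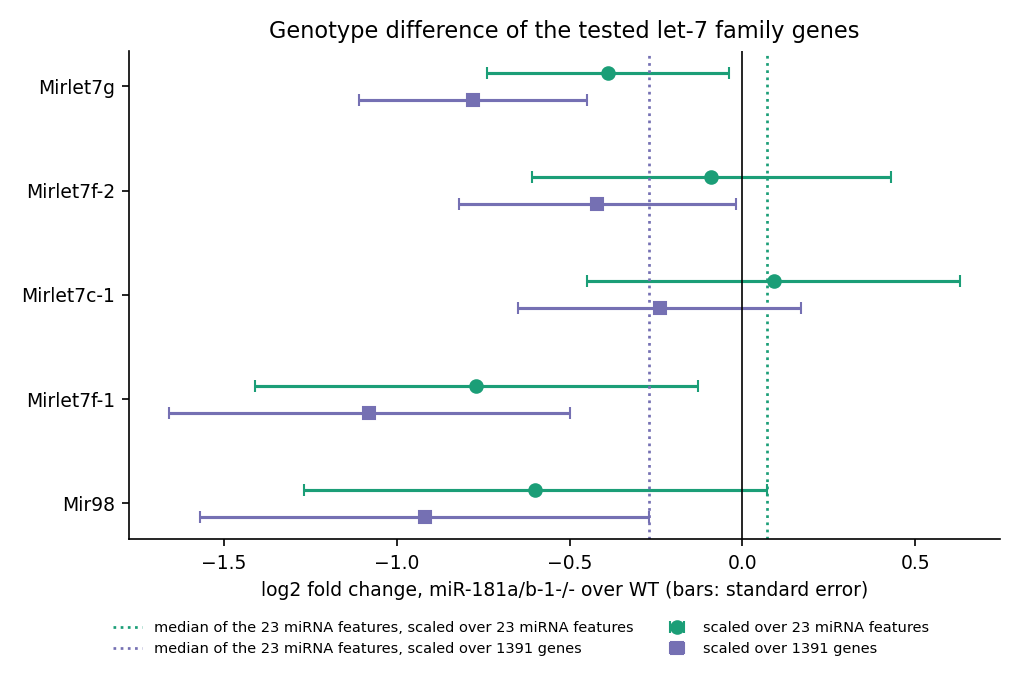
Points give the log2 fold change of miR-181a/b-1-/- over WT for the 5 tested members, with standard errors as bars, scaled over 23 miRNA features (circles) or over 1391 genes (squares). Dotted lines mark the median of the 23 miRNA features under each scaling, 0.07 and -0.27, and the all-gene scaling moves every member to the left.

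As a whole, the family held 5.79%, 4.04% and 5.17% of all miRNA counts in WT and 3.91%, 2.80% and 4.97% in KO. The ranges of the groups overlapped, since KO replicate 3 exceeded WT replicate 2. The mean share was 5.0% ± 0.887 in WT and 3.89% ± 1.09 in KO (SD over 3 libraries each). This sum over members is a description and was not tested. KO replicates 1 and 2, with the lowest shares, were also the libraries with the fewest miRNA counts (1814 and 1359). The 95% Wilson intervals were 5.05% to 6.63%, 3.4% to 4.8% and 4.40% to 6.07% for the WT libraries. For the KO libraries they were 3.11% to 4.91%, 2.04% to 3.81% and 4.29% to 5.75%, and the interval of WT replicate 2 overlapped all 3 of them.

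The share of Mir150, the most counted miRNA of these libraries, was part of that denominator. It took 51.9%, 57.6% and 54.7% of the miRNA counts in WT and 49.8%, 42.6% and 52.5% in KO libraries. With Mir150 left out of the denominator, the log2 ratio of the mean family share, KO over WT, moved from -0.36 to -0.51. Relative to the counts on all genes the family held 0.0668% ± 0.0182 in WT and 0.0390% ± 0.0181 in KO (SD over 3 libraries each). Those ranges overlapped as well, with 0.0552% in both WT replicate 2 and KO replicate 3.

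The pattern of the summed family over the 6 libraries was compared with that of each other tested miRNA gene by Pearson's r of the log2 levels. Outside the 10 members the highest values were 0.80 for Mir150, 0.70 for Mir342 and 0.69 for Mir15b, and Mirlet7a-2 and Mir92-2 came to 0.69 as well. At the other end, r outside the members went down to -0.88. Among the members themselves r with the sum ran from 0.78 for Mirlet7c-1 to 0.95 for Mirlet7g, which makes up most of that sum. These are descriptions over 6 libraries that share their depth and scaling factors.

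Genes that make, load or degrade let-7 were present as fragments in the same libraries. Of 24 listed names, 22 were in the files, the other 2 being older names, and 19 had counts. Lin28a, whose protein blocks let-7 maturation, had 1 count, in WT replicate 3, and Lin28b had none. Dicer1, which cuts the hairpin, had 2, 9 and 10 counts in WT and 9, 6 and 7 in KO. Of the list, 6 genes passed the filter and none was called in either direction by edgeR over all genes, with a median log2 fold change of -0.23.

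Tut4, a terminal uridylyl transferase that tails let-7 precursors, had 29, 25 and 21 counts in WT and 17, 17 and 30 in KO (log2 fold change -0.17, standard error 0.30). Ago2, the Argonaute protein with slicer activity, had 15, 13 and 17 counts in WT and 12, 6 and 13 in KO (log2 fold change -0.45, standard error 0.36). The other genes of the list that passed the filter were the silencing scaffolds Tnrc6a (0.20) and Tnrc6b (-0.35) and the helicases Ddx5 (-0.20) and Ddx17 (-0.26), given as log2 fold changes on the all-gene scale. The adjusted p of these 6 genes was 0.98 each.

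Of 20 listed let-7 targets, 16 had counts and 3 passed the filter, with a median log2 fold change of 0.04 and none called by edgeR in either direction. Ccnd2, a cyclin of the G1 phase, had 113, 124 and 115 counts in WT and 102, 113 and 123 in KO. Tgfbr1, a receptor for TGF-β, had 12, 20 and 15 against 18, 14 and 16. The log2 fold changes were 0.04 for Ccnd2 and 0.12 for Tgfbr1, with standard errors of 0.25 and 0.34. Zbtb16 and Il10 had no counts. Such counts come from a small RNA library and are not a measure of mRNA level.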

How the data were processed

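Small RNA of thymic Treg cells was sequenced from 3 WT and 3 miR-181a/b-1-/- samples with the SMARTer smRNA-Seq Kit. The raw counts per gene that the authors deposited come from HTSeq on STAR alignments and were not normalized. Reads had first passed adapter trimming (Flexbar) and a filter against rRNA (Bowtie 2). The submitters' processing notes name GRCm38.p6. The annotation release and the settings of STAR and HTSeq are not given in the sources used here. Of 54547 identifiers, 51550 matched GENCODE vM21 with their version and 53706 without it. A second deposited file, a table of miRNA features, served only as the list of 1241 features. Its columns of the authors' DESeq2 comparison and of normalized values were not used.

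Groups came from the labels. Counts were tested with edgeR 4.0.16 in R 4.3.3 (TMM, quasi-likelihood test, no block, Benjamini-Hochberg adjustment, at least 10 counts in at least 3 libraries), and standard errors were derived from the fold change and F. Records on no gene (75.7% to 80.3% of a library) stayed out. Totals of 1359 to 3422 miRNA counts limit precision. Scripts were tested on simulated data. Order was tested with SciPy 1.17.1 by exact sign-flip permutation. Alternatives were DESeq2 1.42.0, other scalings, filters, gene lists and denominators, a replicate block, and each library left out. Sequences came from RefSeq (GRCm38.p6). The members, lists and naming rule (all members, other let-7 genes, neighbours within 10 kb, host genes, the 3 most similar miRNA genes, list genes that passed the filter) were chosen with earlier results of these data known. Mir6236, Mir122, Mir31, Mir1961, Mir92-2 and the list genes named below the filter were named after their values were seen. The values of 1 listed target that passed the filter are not reported here.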

Additional observations from a re-analysis of the deposited data

How the results depend on the processing

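In the 14 alternative fits, which tested between 1 and 7 of the 10 members each, no tested member passed an adjusted p of 0.05. Fits without 1 library tested Mirlet7g and Mirlet7f-2 in all 6 cases and Mirlet7c-1, Mirlet7f-1 and Mir98 in 3, since fewer libraries then met the filter. Mirlet7g, Mirlet7f-1 and Mir98 kept their negative direction in all fits that tested them, from -0.83 to -0.17, from -1.09 to -0.45 and from -1.29 to -0.30 on the log2 scale. Mirlet7g had an unadjusted p under 0.05 in 3 of these fits: with scaling over all genes, with no filter on low counts (-0.70) and without miR-181a/b-1-/- replicate 3 (-0.83), all by edgeR, with adjusted p of 0.161 to 0.896. In the same 3 fits, 72 of 1391, 9 of 178 and 5 of 20 features tested had an unadjusted p under 0.05 by edgeR. Mirlet7c-1 turned from 0.09 to -0.24 with scaling over all genes and to -0.23 with no filter, and ran from -0.41 to 0.32 when single libraries were left out, reversing without WT replicate 2. Mirlet7f-2 came to 0.00 with the GENCODE miRNA biotype as the gene list and ran from -0.88 to 0.10 when single libraries were left out, reversing without miR-181a/b-1-/- replicates 1 or 2. The median of the miRNA features in each fit moved too, from 0.07 in the main fit. It was -0.27 with scaling over all genes, -0.20 with no filter and -0.31 without WT replicate 2. With the GENCODE gene list it was 0.20. Without miR-181a/b-1-/- replicates 1, 2 or 3 it was 0.14, 0.10 and -0.25. The cause of these reversals was not tested. The log2 ratio of the family share moved from -0.36 to -0.78 with counts on all genes as denominator, and ran from -0.58 to -0.17 with single libraries left out. Without miR-181a/b-1-/- replicate 3 it was -0.58 and without replicate 2 it was -0.17. The Mirlet7g share stayed between 52.8% and 58.9%. The share of windows found elsewhere moved with window length, by construction, to 6.91% at 18 bases and 0.293% at 25. Comparison with a whole genome was not run. Not dividing by length, an alternative chosen after seeing the data like the search of transcripts, left 0 neighbouring pairs past the threshold.

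The replicate numbers were not taken to pair the samples, since neither the labels nor the methods tie them to a shared batch and not every same-numbered pair correlated above 0.1. The deviations of same-numbered libraries correlated at -0.04, 0.47 and 0.28 over the 23 features and at 0.23, 0.08 and 0.18 over 1391 genes. Over the 1391 genes every library correlated best with its own number, and the differently numbered pairs ran from -0.23 to 0.06, which is a hint from the data and not from the design. Over the 23 features this was not so for WT replicate 1 and KO replicate 1. A replicate block left 0 members called, and the Mirlet7g log2 fold change was then -0.40.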
